A study of Mus musculus with 10 samples.

Results

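The 42 genes described here encode the machinery that carries a cell through mitosis: cyclins and mitotic kinases, the spindle checkpoint, the chromosomal passenger complex, proteins that trigger anaphase, the kinetochore, spindle motors and condensin. They were given as a list of gene names. A gene was counted where the array annotation gave a probe set this symbol alone, current or former, and its brightest probe set over the 10 arrays was used. In this way 41 of the 42 were measured, among 18194 genes in all, and Ccnb1 was not analysed here.

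RNA of the secondary palate of C57B6 mouse embryos at E14.5, the stage at which the palatal shelves fuse, was hybridised to Affymetrix mouse expression arrays. The mutant group had 5 arrays of genotype Tgfbr2fl/fl;Wnt1-Cre, in which a Cre recombinase under the Wnt1 promoter deletes floxed Tgfbr2, the type II TGF-beta receptor, in the neural crest. The control group had 5 arrays of genotype Tgfbr2fl/fl, so both groups carried the floxed alleles and the controls, titled Wildtype, had no Cre. Embryos were not sexed, per the labels. The neural crest forms most of the palatal mesenchyme and also cells of the walls of craniofacial vessels, whereas cells of other origin in the sampled tissue, such as epithelium, endothelium and muscle fibres, are not targeted by this Cre. No label ties each array to an embryo of its own, and the p-values therefore cover the variation among these arrays, which may be technical.

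Values are the authors' log2 values, given to 1 decimal, and they ran from 2.2 to 14.3 over the 10 arrays, with array medians of 6.4 or 6.5. Tgfbr2 itself read 10.7, 10.7, 10.8, 10.7 and 10.8 in mutant replicates 1 to 5, against 10.5, 10.8, 10.7, 10.6 and 10.7 in control replicates 1 to 5 (log2 fold change 0.08, SE 0.07, adjusted p = 0.482). Its probe set was not placed against the floxed exon, and this value is therefore no check of the deletion. Of 12 palate mesenchyme markers, all had a mean level above the median gene, among them Prrx1 at 11.9 to 12.5 and Shox2 at 10.9 to 11.6. Control replicate 1 stood apart: it correlated with the other arrays at 0.985 to 0.989, whereas the other 9 correlated among themselves at 0.989 to 0.996.

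Cells enter mitosis when cyclins A and B activate the kinase Cdk1. Chromosomes are then condensed, attached through their kinetochores to spindle microtubules and held under the spindle checkpoint until every attachment is made. The anaphase-promoting complex, APC/C, then marks securin and cyclin B for destruction, and the cell divides. Transcripts of many of these genes are made mainly in the G2 and M phases, so in a tissue extract their level is widely used as a readout of dividing cells. In the developing palate, the shelves grow through proliferation of mesenchyme before and during their fusion.

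Mitotic transcripts were lower in mutant palate. Of the 41 measured genes, 38 (92.7%) fell, none rose and 3 were not called by limma at an adjusted p under 0.05. Over all genes tested, 5.36% were called lower and 2.91% higher. These include dim genes. In a fit to the brighter 60% of genes, which held all 41, 9.98% of genes were called lower, and 39 of the 41. The decreases were modest: the median log2 fold change of the 41 was -0.48, a 1.39-fold lower level, against a median of 0.00 for all genes, and single values ran from -0.72 to -0.18. All 41 had a negative log2 fold change, 34 of them at least 1.3-fold and 5 at least 1.5-fold. In bulk tissue, fewer dividing cells and less mitotic RNA per dividing cell cannot be told apart.

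The 2 groups of arrays did not overlap for most of these genes. For 38 of 41 every mutant array lay below every control array, which held for 4.93% of all genes, and these were the 38 called genes. The opposite, every mutant array above every control, held for none of the 41 and for 1.82% of all genes. The gap between the highest mutant and the lowest control array was 0.1 to 0.4 on the log2 scale, and for 13 genes it was 0.1, the step to which the values were rounded. When each array was centred on its own median, the arrays of 25 of the 41 genes stayed apart in this way. The share of all genes that did so was not counted for the centred values. That centring also turned the split of all calls, to 27% lower, against 64.8% lower without it, while 33 of the 41 genes were still called lower and none higher. Of all genes, 2.61% were called lower after it. Medians of values rounded to 0.1 can differ between arrays by a whole rounding step. The centring moved the median log2 fold change of all genes from 0.00 to 0.08. How far rounding made these changes was not tested.

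**Figure D1:**
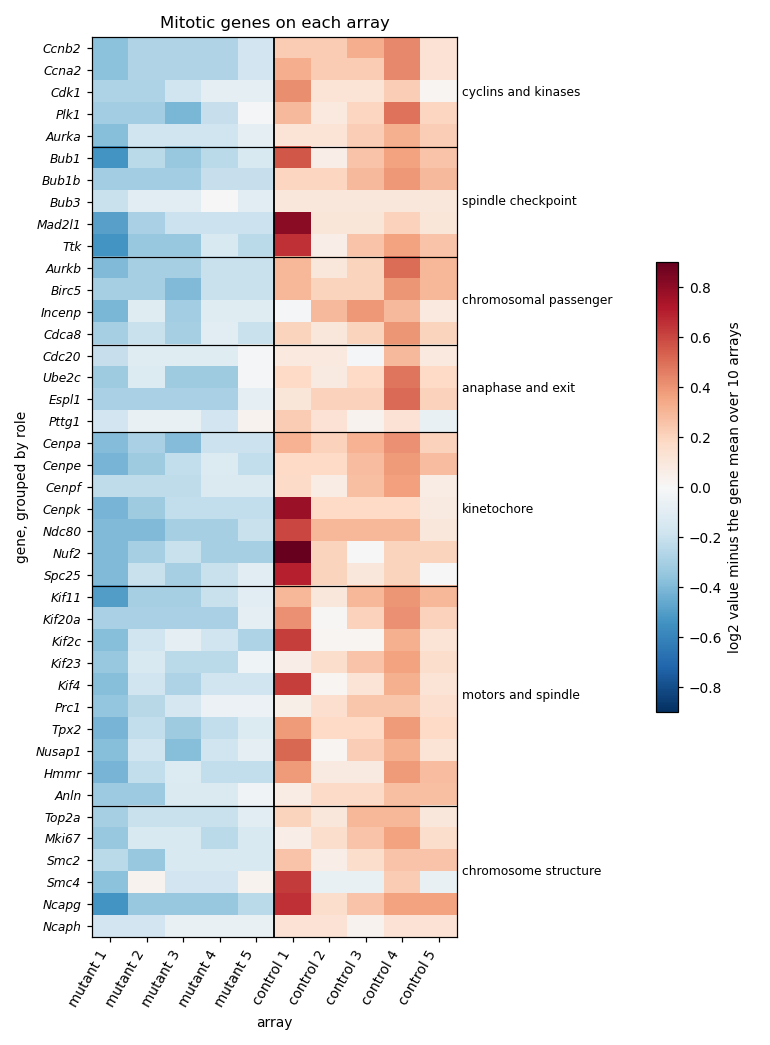
Log2 value of each of the 41 mitotic genes on each array minus the gene's mean over the 10 arrays (colour, blue low and red high), with 5 mutant arrays on the left, 5 control arrays on the right and genes grouped by role. Mutant arrays are blue and control arrays red in nearly all rows, with the darkest red in control replicate 1 for Nuf2 and Mad2l1.

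The cyclins and entry kinases all fell. Ccnb2, encoding cyclin B2, a partner of Cdk1, read 9.9, 10, 10, 10 and 10.1 in the mutant arrays, against 10.5, 10.5, 10.6, 10.7 and 10.4 in the controls. Its mean was 10 ± 0.07 in mutants and 10.54 ± 0.11 in controls (SD, n = 5 each), 1.45-fold lower, with SE 0.07 and adjusted p = 0.00149 by limma. Every mutant array was below every control by at least 0.3. Ccna2, encoding cyclin A2, read 10.3, 10.4, 10.4, 10.4 and 10.5 in mutants, against 11.0, 10.9, 10.9, 11.1 and 10.8 in controls, 1.45-fold lower like Ccnb2. Its dimmer probe set moved by -0.60. Aurka, the aurora A kinase of the spindle poles, was at 8.7, 8.9, 8.9, 8.9 and 9.0 in mutants, against 9.2, 9.2, 9.3, 9.4 and 9.3 in controls (log2 fold change -0.40, SE 0.07, adjusted p = 0.00680). A second Aurka probe set, dim at a mean of 4.73, moved by only -0.02, and with all probe sets averaged Aurka was not called (-0.21, adjusted p = 0.122). Plk1, encoding polo-like kinase 1, fell by 0.50, and Cdk1 itself fell by 0.36 (SE 0.08, adjusted p = 0.0220). The Cdk1 call was lost without mutant replicates 1, 2 or 3 (adjusted p 0.0512 to 0.0563, with 0.0204 to 0.0563 over all 10 omissions) and with centring on array medians (0.0566).

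The promoter region of Ccnb2 is shown because 2 short motifs known from studies of human and mouse cells mark many G2 and M genes. TTTGAA is the cell cycle genes homology region, bound by MuvB complexes with B-Myb or FoxM1, and CCAAT is bound by NF-Y. The promoters of Cenpa, Kif11, Birc5 and Cdc20 are set beside it to compare genes that fell with motifs (Ccnb2, Cenpa, Kif11), a gene that fell without either (Birc5) and a gene that was not called but has both (Cdc20). Pttg1, also not called, has neither motif in its promoter region and is not printed. Sequences are from RefSeq on GRCm38.p6, in the direction of the gene, from 170 bases before to 30 bases after its annotated start, with matches to either motif on either strand in capitals (on the other strand they read TTCAAA and ATTGG). They cover chr9:70421525-70421724 (minus strand) for Ccnb2, chr5:30666716-30666915 (plus) for Cenpa, chr19:37376212-37376411 (plus) for Kif11, chr11:117849067-117849266 (plus) for Birc5 and chr4:118437314-118437513 (minus) for Cdc20.
Ccnb2: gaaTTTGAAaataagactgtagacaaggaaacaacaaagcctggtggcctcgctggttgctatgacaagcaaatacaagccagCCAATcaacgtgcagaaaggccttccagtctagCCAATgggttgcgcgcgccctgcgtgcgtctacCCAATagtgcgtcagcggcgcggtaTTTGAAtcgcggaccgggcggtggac
Cenpa: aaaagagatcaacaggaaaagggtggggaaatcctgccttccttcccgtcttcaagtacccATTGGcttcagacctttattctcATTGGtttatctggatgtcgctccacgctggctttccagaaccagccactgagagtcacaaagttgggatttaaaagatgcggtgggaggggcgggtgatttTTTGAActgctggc
Kif11: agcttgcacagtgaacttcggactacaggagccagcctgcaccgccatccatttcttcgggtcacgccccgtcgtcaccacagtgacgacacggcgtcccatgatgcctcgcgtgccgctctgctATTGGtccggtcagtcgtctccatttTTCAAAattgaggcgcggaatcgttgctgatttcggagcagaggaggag
Birc5: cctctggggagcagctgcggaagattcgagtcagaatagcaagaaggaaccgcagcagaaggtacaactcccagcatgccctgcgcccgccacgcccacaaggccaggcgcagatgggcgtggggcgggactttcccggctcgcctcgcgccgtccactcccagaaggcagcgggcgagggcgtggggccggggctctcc
Cdc20: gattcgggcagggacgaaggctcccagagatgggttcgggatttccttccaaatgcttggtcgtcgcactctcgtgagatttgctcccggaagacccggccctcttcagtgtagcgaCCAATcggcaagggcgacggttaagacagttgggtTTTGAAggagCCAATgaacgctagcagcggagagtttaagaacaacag
Numbering from the start, with no base 0, Ccnb2 has CCAAT at -87 to -83, -54 to -50 and -21 to -17, and TTTGAA at 5 to 10 and -167 to -162. Cenpa has TTTGAA at 17 to 22, and Kif11 has TTCAAA at -19 to -14.

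RefSeq promoter windows, from 250 bases before to 50 after the start, were found for 35 of the 41 genes, 3 of which had more than 1 window, 39 windows in all. TTTGAA was present on either strand in 28 of the 39 windows (71.8%) and CCAAT in 30 (76.9%). Both were present in 25 (64.1%), and matches of the 2 motifs overlapped at 1 place. Among all 32851 windows, which include those of non-coding genes, the shares were 17.9% for TTTGAA, 37.4% for CCAAT and 6.95% for both. Genes fell with and without TTTGAA: the 26 genes with TTTGAA had a median log2 fold change of -0.44, with 25 called lower, and the 9 without it had a median of -0.54, with 8 called lower. No test was made of these shares.

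Spindle checkpoint genes, whose products hold back anaphase until all kinetochores are attached, fell in 5 of 5 cases. Bub1b, encoding the checkpoint protein BubR1, had values of 9.0, 9.0, 9.0, 9.1 and 9.1 in mutants, against 9.5, 9.5, 9.6, 9.7 and 9.6 in controls. The difference of -0.54 (SE 0.06, adjusted p = 0.000879) had the smallest p of the 41 genes, and a second probe set of Bub1b fell by 0.66. Bub1, a kinetochore-bound checkpoint kinase, was at 9.3, 9.6, 9.5, 9.6 and 9.7 in mutants, against 10.4, 9.9, 10.1, 10.2 and 10.1 in controls (-0.60, SE 0.10, adjusted p = 0.00551). Ttk, encoding the kinase Mps1 that starts the checkpoint signal, was at 7.8, 8.0, 8.0, 8.2 and 8.1 in mutants, against 9.0, 8.4, 8.6, 8.7 and 8.6 in controls (-0.64, SE 0.11, adjusted p = 0.00634). In both genes mutant replicate 1 was lowest and control replicate 1 highest. Mad2l1, encoding the Cdc20 inhibitor Mad2, fell by 0.54, with control replicate 1 at 10.8 and the other controls at 10.1 or 10.2. Without that array Mad2l1 differed by -0.41 (adjusted p = 0.00839). Without mutant replicates 1, 2, 3 or 5 its call was lost (0.0525 to 0.0684). Bub3, which recruits Bub1 and BubR1, showed the smallest checkpoint change, at 11.5, 11.6, 11.6, 11.7 and 11.6 in mutants and 11.8 in all 5 controls (-0.20, adjusted p = 0.0378). Leaving out any array but mutant replicate 4 or control replicate 1 lost the Bub3 call (adjusted p 0.0632 to 0.0911), as did median centring (0.186), repeated quantile normalization (0.0612), noise within the rounding step (0.0633) and a sex-linked covariate (0.0930). Of its 4 dimmer probe sets, those at 8.46 and 6.49 differed by -0.44 and -0.50.

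All 4 genes of the chromosomal passenger complex, which corrects faulty attachments and later guides cytokinesis, fell, by 0.42 to 0.56 on the log2 scale. Birc5, encoding survivin, was at 9.8, 9.8, 9.7, 9.9 and 9.9 in mutants, against 10.4, 10.3, 10.3, 10.5 and 10.4 in controls (-0.56, SE 0.06, adjusted p = 0.00103). Aurkb, the aurora B kinase of the complex, was at 8.1, 8.2, 8.2, 8.3 and 8.3 in mutants, against 8.8, 8.6, 8.7, 9.0 and 8.8 in controls (-0.56, SE 0.08, adjusted p = 0.00229). Cdca8, encoding borealin, read 9.8, 9.9, 9.8, 10 and 9.9 in mutants, against 10.3, 10.2, 10.3, 10.5 and 10.3 in controls (-0.44, SE 0.07, adjusted p = 0.00423). No mutant array reached a control array in any of the 3, and both Aurkb probe sets and all 3 Cdca8 probe sets were called lower in a test of every probe set. Incenp, the scaffold of the complex, fell by 0.42 (adjusted p = 0.0194). Its call was lost without mutant replicate 3 (0.0534, in a range of 0.00922 to 0.0534 over omissions) and with the sex-linked covariate (0.0727).

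Of 4 genes that act at anaphase 2 fell and 2 were not called, and all 4 were lower at an unadjusted p under 0.05. Of all 18194 genes, 2755 were lower and 1824 higher at that unadjusted threshold by limma. The difference between the 4 anaphase genes was not tested. Espl1, encoding separase, the protease that cuts cohesin, was at 8.3, 8.3, 8.3, 8.3 and 8.5 in mutants, against 8.7, 8.8, 8.8, 9.1 and 8.8 in controls (-0.50, SE 0.08, adjusted p = 0.00458). Ube2c, the ubiquitin-conjugating enzyme that serves the APC/C, was at 10.3, 10.5, 10.3, 10.3 and 10.6 in mutants, against 10.8, 10.7, 10.8, 11.1 and 10.8 in controls (-0.44, SE 0.09, adjusted p = 0.0144). For both genes control replicate 4 was the highest array. Cdc20, the activator of the APC/C whose promoter is printed above, was not called: it read 11.0, 11.1, 11.1, 11.1 and 11.2 in mutants, against 11.3, 11.3, 11.2, 11.5 and 11.3 in controls. Its difference of -0.22 had a 95% confidence interval of -0.36 to -0.08 and an adjusted p of 0.0617, and the groups met at 11.2. Cdc20 passed the threshold under 5 other settings, at adjusted p 0.0212 with all probe sets averaged to 0.0442 without suffixed probe sets. Pttg1, encoding securin, the inhibitor of separase, was not called either (-0.18, interval -0.33 to -0.03, adjusted p = 0.131), with values of 11.7 to 11.9 in mutants and 11.8 to 12.1 in controls.

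Kinetochore genes all fell, with a median log2 fold change of -0.56 for the 7. Cenpa, the histone H3 variant that marks centromeres, was at 9.7, 9.8, 9.7, 9.9 and 9.9 in mutants, against 10.4, 10.3, 10.4, 10.5 and 10.3 in controls (-0.58, SE 0.07, adjusted p = 0.00104). Its other probe sets, at mean levels of 3.43 and 6.28, moved by -0.10 and -0.08 and were not called, and the mean of all 3 was not called (-0.25, adjusted p = 0.378). Cenpe, a kinesin of the outer kinetochore, read 8.9, 9.0, 9.1, 9.2 and 9.1 in mutants, against 9.5, 9.5, 9.6, 9.7 and 9.6 in controls (-0.52, SE 0.07, adjusted p = 0.00191). Ndc80, which gives its name to the complex that grips microtubules, was at 7.4, 7.4, 7.5, 7.5 and 7.6 in mutants, against 8.4, 8.1, 8.1, 8.1 and 7.9 in controls (-0.64, SE 0.09, adjusted p = 0.00191). Each of these 3 genes left a gap of 0.3 or 0.4 between the groups. Nuf2 and Spc25, 2 further subunits of the NDC80 complex, fell by 0.60 and 0.48, and Cenpk, of the inner kinetochore, fell by 0.56. In these 3, control replicate 1 lay above every other control, by 0.7 for Nuf2, 0.5 for Spc25 and 0.6 for Cenpk, and without it the differences were -0.45, -0.37 and -0.43 with adjusted p of 0.00292, 0.0135 and 0.00272. The Nuf2 call was lost without mutant replicates 1, 2, 3 or 5 (0.0504 to 0.0579), and that of Spc25 without mutant replicates 1, 2, 3 or 4 (0.0541 to 0.0726). Cenpf, a large coiled-coil protein of the outer kinetochore, fell by 0.38 (adjusted p = 0.00907).

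Motors and spindle proteins fell in 10 of 10 cases, with a median of -0.48. Tpx2, which activates aurora A and promotes microtubule assembly, was at 9.3, 9.5, 9.4, 9.5 and 9.6 in mutants, against 10.1, 9.9, 9.9, 10.1 and 9.9 in controls (-0.52, SE 0.07, adjusted p = 0.00262). Kif11, the kinesin that pushes spindle poles apart, was at 8.4, 8.6, 8.6, 8.7 and 8.8 in mutants, against 9.2, 9.0, 9.2, 9.3 and 9.2 in controls (-0.56, SE 0.08, adjusted p = 0.00286). Its 2 dimmer probe sets were called lower as well, at -0.64 and -0.50. Kif20a, a kinesin of the midzone, was at 8.9, 8.9, 8.9, 8.9 and 9.1 in mutants, against 9.6, 9.2, 9.4, 9.6 and 9.4 in controls (-0.50, SE 0.08, adjusted p = 0.00611). The highest mutant array of Kif20a was 0.1 below the lowest control. Kif23 and Prc1, which bundle the midzone microtubules for cytokinesis, fell by 0.40 and 0.34, and Anln, the cleavage furrow protein anillin, fell by 0.38. Other Kif23 probe sets, at mean levels of 7.13 and 4.70, moved by -0.66 and 0.28. The Prc1 call was lost with median centring (0.0577) and with the sex-linked covariate (0.0649). A second Prc1 probe set, at a mean of 9.21, differed by -0.22 and was not called (adjusted p = 0.126 in the test of every probe set). Nusap1 and Hmmr, microtubule-binding proteins of the spindle, each fell by 0.48. The chromokinesin Kif4 fell by 0.48, a call lost without mutant replicate 3 (0.0509). Kif2c, a kinesin that shortens microtubules at kinetochores, fell by 0.44 (adjusted p = 0.0352), and its call was lost without any of the 5 mutant arrays or control replicates 4 or 5 (0.0522 to 0.0812), with repeated quantile normalization (0.0681) and with median centring (0.0688).

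Of 6 genes of chromosome structure, 5 fell. Ncapg, a condensin I subunit, had the largest decrease of the 41 genes, 1.65-fold, at 7.6, 7.8, 7.8, 7.8 and 7.9 in mutants, against 8.8, 8.3, 8.4, 8.5 and 8.5 in controls (-0.72, SE 0.09, adjusted p = 0.00160). Top2a, the topoisomerase that untangles sister chromatids, was at 11.0, 11.1, 11.1, 11.1 and 11.2 in mutants, against 11.5, 11.4, 11.6, 11.6 and 11.4 in controls (-0.40, SE 0.06, adjusted p = 0.00484). Smc2, a core condensin ATPase, was at 10.1, 10, 10.2, 10.2 and 10.2 in mutants, against 10.6, 10.4, 10.5, 10.6 and 10.6 in controls (-0.40, SE 0.07, adjusted p = 0.00542). These groups lay 0.2 to 0.4 apart. Mki67, the proliferation marker Ki-67 that coats mitotic chromosomes, fell by 0.40 (adjusted p = 0.00754), at 11.1 to 11.3 in mutants and 11.5 to 11.8 in controls. Top2a was not called with all probe sets averaged (-0.22, adjusted p = 0.104), since its 2 other probe sets moved by 0.00 and -0.26. Ncaph, another condensin I subunit, fell by 0.22 (adjusted p = 0.0273), a call lost without mutant replicates 1, 2 or 3 or control replicates 4 or 5 (0.0509 to 0.0684) and with median centring (0.138). The Ncaph call was also lost with repeated quantile normalization (0.0785) and with the sex-linked covariate (0.0665). Smc4, the partner of Smc2, was not called: it read 10.8, 11.2, 11.0, 11.0 and 11.2 in mutants, against 11.8, 11.1, 11.1, 11.4 and 11.1 in controls (-0.26, interval -0.56 to 0.04, adjusted p = 0.264). Control replicate 1 held the highest Smc4 value, and without it the difference was -0.13 (adjusted p = 0.404).

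**Figure D2:**
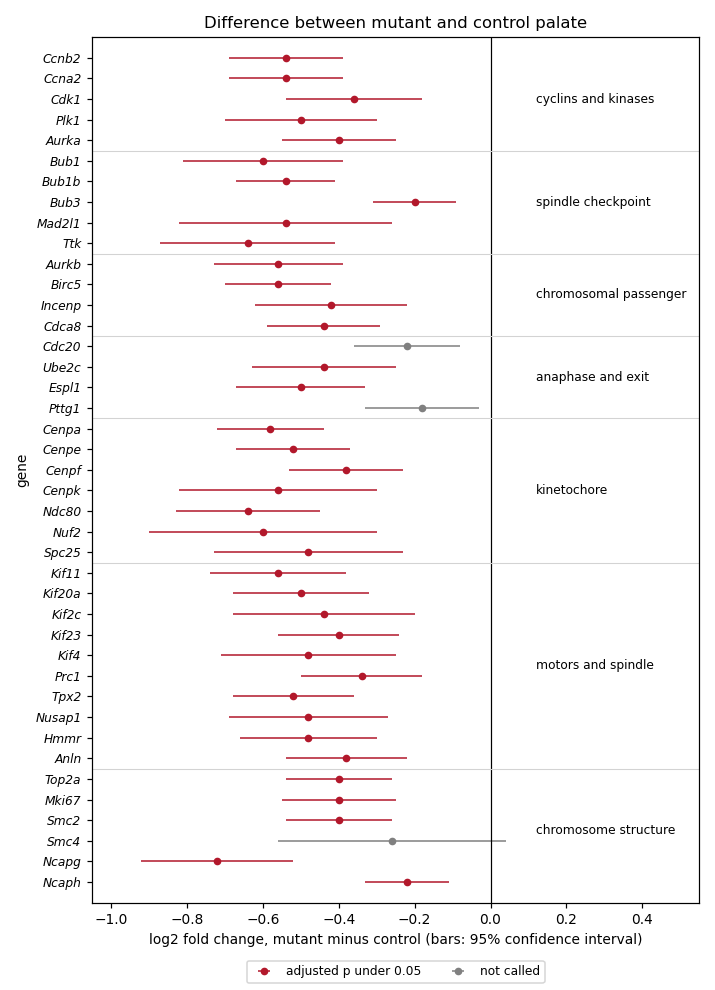
Log2 fold change of each mitotic gene, mutant minus control (points), with its 95% confidence interval (bars), grouped by role; red genes passed an adjusted p under 0.05 and grey genes did not. All 41 points lie left of 0, from -0.72 for Ncapg to -0.18 for Pttg1, and only the interval of Smc4 includes 0.

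**Figure D3:**
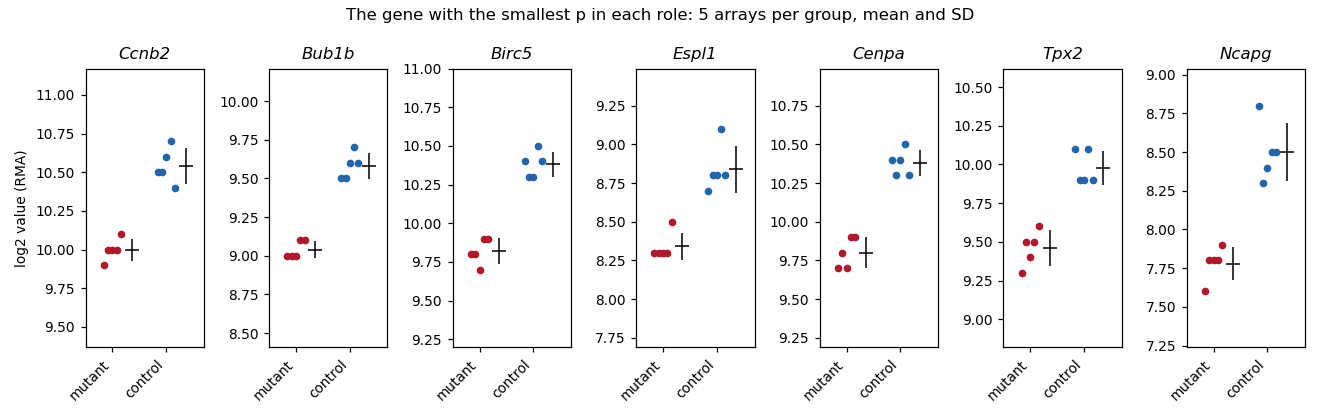
Log2 values of the gene with the smallest p in each of the 7 roles, with 5 mutant arrays (red) and 5 control arrays (blue) as points and the group mean and SD in black; each panel spans the same range of log2 units. In all 7 genes the 2 groups do not overlap.

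Genes with more than 1 probe set gave a further reading of the same RNA. The 41 genes had 97 probe sets, of which 56 were not used above. In a test of all 45101 probe sets, where 2.18% were called lower, 21 of the 56 were called lower, none of the 97 was called higher, and 51 of the 56 had a negative difference. Of the 97, 54 were called lower. The used probe sets of Bub3, Kif2c, Spc25, Mad2l1 and Ncaph lost their calls in that test (adjusted p 0.0516 to 0.0687 by limma). Of the 33 unused probe sets with a mean level of at least 7, 18 were called lower, with a median difference of -0.44. Of the 23 dimmer ones 3 were called, with a median of -0.18. Probe sets of a gene share the same RNA samples and are not replicates.

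Arrays also differed within each group. Among mutants, replicate 1 alone was the lowest array for 25 of the 41 genes, and replicate 5 alone was the highest for 19. As medians over the 41 genes of the deviation from each gene's mean, mutant replicates 1 to 5 lay at -0.37, -0.25, -0.27, -0.20 and -0.13, and control replicates 1 to 5 at 0.30, 0.12, 0.20, 0.36 and 0.16. Control replicate 4 alone was the highest control for 17 genes and control replicate 1 for 14. The genes that follow were picked with these values in view, for the contrast between both arrays. Control replicate 1 exceeded the mean of the other controls by 0.75 for Nuf2, 0.68 for Mad2l1, 0.62 for Cenpk and Smc4 and 0.58 for Spc25, where control replicate 4 stood at -0.12 to 0.12 against its own others. Control replicate 4 exceeded the others by 0.33 for Ube2c, 0.32 for Espl1, 0.30 for Plk1 and 0.23 for Cdc20, where control replicate 1 stood at -0.18 to 0.05. In other genes both stood equally high, by 0.20 for Kif20a, 0.18 for Hmmr and 0.15 for Tpx2. Control replicate 1 lay at least 0.5 above the next control for 4 of the 41 genes, and for 4.2% of all genes. Without control replicate 1, 38 of the 41 genes were called lower.

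**Figure D4:**
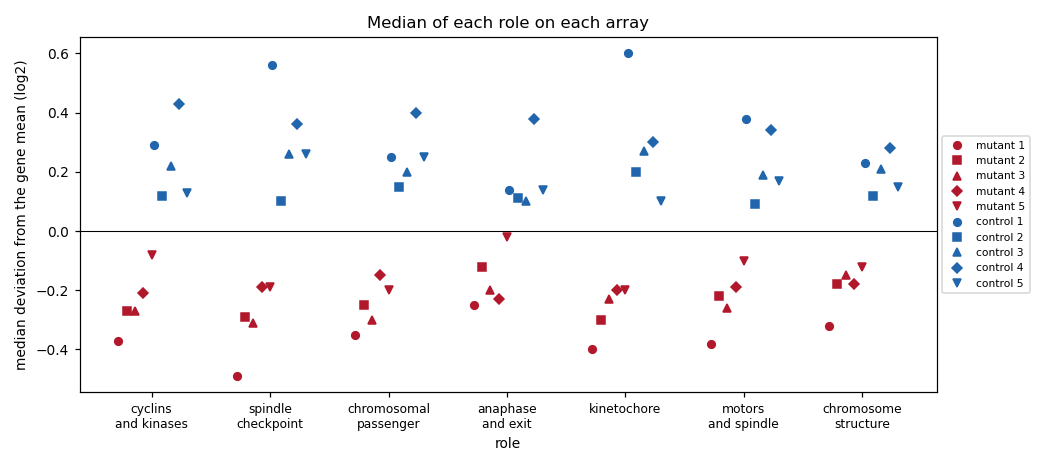
Median over the genes of each role of the deviation from the gene's mean over 10 arrays (vertical axis, log2), with mutant arrays in red left of control arrays in blue and a symbol for each replicate. All mutant medians are below 0 and all control medians above it, with control replicate 1 highest in the spindle checkpoint (0.56) and kinetochore (0.60) roles and control replicate 4 highest in anaphase and exit (0.38).

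The other genes of mitosis were taken from a list of 88 that does not overlap the 41. Of these, 40 fell (45.5%), 1 rose and 47 were not called; the median over the list was -0.35 on the log2 scale. The smallest p-values were those of Cenpu (-0.62), Ckap2 (-0.60), Cdca5 (-0.74), Cdca3 (-0.66) and Tacc3 (-0.62), with adjusted p from 0.000806 to 0.00119. Cenpu belongs to the inner kinetochore, Cdca5 encodes sororin, which keeps cohesin on chromosomes, and Tacc3 stabilises spindle microtubules. Cenpu read 7.1, 7.1, 7.2, 7.3 and 7.2 in mutants, against 7.9, 7.7, 7.8, 7.8 and 7.8 in controls. Foxm1 and Mybl2, encoding the transcription factors FoxM1 and B-Myb that drive mitotic genes, fell by 0.52 (SE 0.11, adjusted p = 0.020) and 0.40 (SE 0.09, adjusted p = 0.0185). Foxm1 was at 7.2, 7.3, 6.9, 7.1 and 7.5 in mutants, against 7.8, 7.4, 7.8, 7.8 and 7.8 in controls, so its groups overlapped, and its call was lost without control replicate 3. Mybl2 was at 6.3, 6.5, 6.1, 6.3 and 6.4 in mutants, against 6.8, 6.7, 6.9, 6.6 and 6.6 in controls, with no overlap.

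Some complexes within that list had no called gene. Their counts at an unadjusted p under 0.05 stand beside 2755 lower and 1824 higher of all 18194 genes by limma. Of 11 core subunits of the APC/C none was called by limma (3 were lower at an unadjusted p under 0.05), with a median of -0.10. Of 5 cohesin genes, Smc1a, Smc3, Rad21, Stag1 and Stag2, none was called (1 lower at an unadjusted p under 0.05), with differences of -0.14 to 0.10. The 4 MuvB genes Lin9, Lin37, Lin52 and Lin54 were not called either (2 lower at an unadjusted p under 0.05). Of 13 further centromere genes 6 fell, with a median of -0.48, and of 7 further kinesins 3 fell, Kif18b, Kif20b and Kifc1. The exception upward was Nsl1, a kinetochore scaffold gene, which rose by 0.28 (adjusted p = 0.0310), a call lost without 7 of the 10 arrays. These groupings were formed after the values were seen, and the difference between them was not tested.

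Genes of the phases before mitosis were compared as counts. Of 38 measured DNA replication genes 33 fell (86.8%) and none rose, with a median of -0.35, and the thymidine kinase gene Tk1, Rpa2 of the single-strand binding complex and the helicase subunit gene Mcm5 had the smallest p (-0.68, -0.54 and -0.44). Of 12 G1 cyclin genes and partners 3 fell: Rbl1, encoding the pocket protein p107, by 0.36, E2f1 by 0.38 and Ccne1, encoding cyclin E1, by 0.40. The list's median was -0.08. Calls of E2f1 and Ccne1 were lost without 3 and 7 of the 10 arrays, and mutant replicate 3 and control replicate 3, left out in turn, each reduced the 3 calls to 1. Whether the mitotic genes fell more than the replication genes was not tested.

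**Figure D5:**
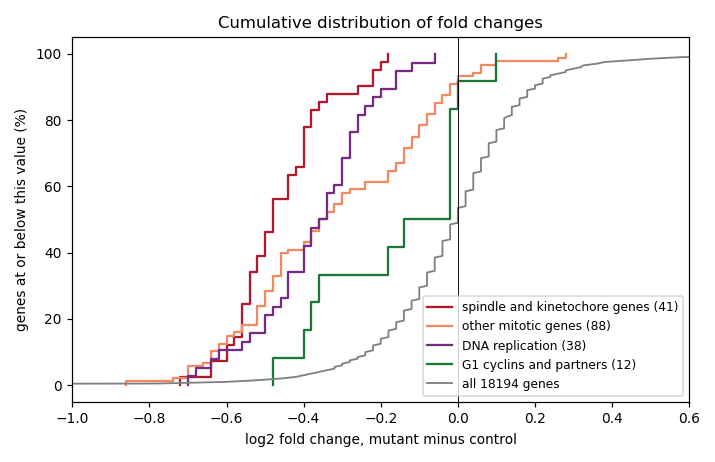
Share of genes (vertical axis, percent) at or below each log2 fold change, mutant minus control, for the 41 spindle and kinetochore genes, 88 other mitotic genes, 38 DNA replication genes, 12 G1 cyclins and partners, and all 18194 genes. The curve of the 41 genes lies farthest left over most of its height and ends at -0.18, while the curve of all genes is centred on 0.00.

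Markers of other cells in the tissue also moved with genotype. Of 20 skeletal muscle genes 15 fell, with a median of -1.85. Their summed level (log2 of the summed linear values) was 10.17 to 12.94 in mutants and 12.65 to 14.44 in controls, so the groups overlapped, and none was below 5 on every array. Muscle sums were 11.37, 10.38, 10.17, 12.94 and 11.24 in mutant replicates 1 to 5. In control replicates 1 to 5 they were 12.73, 13.22, 13.11, 12.65 and 14.44. The mitotic medians, in the same order, were -0.37, -0.25, -0.27, -0.20 and -0.13 in mutants. In controls they were 0.30, 0.12, 0.20, 0.36 and 0.16. A relation between muscle sums and mitotic medians was not tested across these arrays. With the muscle median as a covariate, the median of the 41 genes was -0.50, and 2 of 41, Ccnb2 and Ccna2, passed the threshold (adjusted p = 0.0490 for each). All genes called in that fit numbered 21 lower and 11 higher, and 39 of the 41 were lower at an unadjusted p under 0.05. How many of all genes passed that unadjusted threshold with the covariate was not counted. Without it, 2755 of 18194 genes were lower and 1824 higher at that threshold by limma. Of 9 markers of multiciliated cells 7 rose, with sums of 11.69 to 11.96 in mutants and 10 to 11.38 in controls, and Dnah5 stayed below 5 on every array. The part of multiciliated cells in the mitotic result was not tested. None of 13 epithelial, 9 erythroid and 10 macrophage markers was called by limma (1, 2 and none lower, and 3, 1 and 1 higher, at an unadjusted p under 0.05). Of the erythroid markers, 3 (Hba-a1, Epb42 and Rhag) were below 5 on every array. Sums of these lists overlapped between the groups, at 14.33 to 14.64 in mutants and 14.02 to 14.68 in controls for epithelium. The highest epithelial sum was that of control replicate 1, and control replicate 2 was at 14.42. Control replicates 3 to 5, at 14.02 to 14.11, lay below every mutant array. Of 10 endothelial markers 1 fell, and of the 12 palate mesenchyme markers 1 fell and 1 rose, with mesenchyme sums of 14.79 to 15.01 in mutants and 14.39 to 14.85 in controls. The part of these cells in the mitotic result was not tested.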

How the data were processed

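RNA of 10 palate samples, 5 mutant and 5 control, was measured on Affymetrix arrays. The deposited log2 values were made by the authors with RMA, per the submitters' processing notes, and no version is given in the sources used here. RMA subtracts background, equalises the distributions of the arrays and summarises the probes of a probe set, so a shift shared by most genes would be reduced. Of 45101 probe sets, 34958 had 1 gene symbol in the platform annotation, 932 had several and 9211 had none. Those with 1 symbol were updated through Entrez identifiers, of which 34754 were found in the RefSeq table. The brightest probe set of each gene over all arrays was kept, giving 18194 genes, with no filter on low values. There were 0 value columns without a sample. Groups were taken from the genotype labels.

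Mutant and control arrays were compared with limma 3.58.1 in R 4.3.3 (lmFit and eBayes, no covariates), with Benjamini-Hochberg adjustment over all genes and a threshold of 0.05. The code was tested on simulated data. Arrays carry no counts, so their number limits the precision. Named genes were all 41 measured genes of the list, with array values for the 3 of smallest p in each role and for those not called, plus the genes of smallest p in the other lists. Bub3, Mki67 and Pttg1 values, Nsl1, the sub-groups of the other mitotic list and the ranks of single arrays were picked with their values in view. The genes and lists were chosen with earlier results of these data known. Same-numbered mutant and control arrays did not deviate together over all genes, and no pairing was used in the main fit. The alternatives were other probe set rules, filters, normalizations and weights, covariates, a replicate block and leaving out each array. Promoter sequences are from RefSeq on GRCm38.p6. No genome was used here, so probe positions were not mapped.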

Additional observations from a re-analysis of the deposited data

Results flagged for a closer look

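Among 82 groups of 5 arrays, 2 for each of the 41 genes, 9 single values lay far from the rest of their group by Dixon's test at the 95% level, which chance alone does for about 1 in 20 groups. Values rounded to 0.1 give ties, which make such gaps easier to reach.

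Of the 9 values, 4 belonged to control replicate 1, all high. They were Mad2l1 at 10.8, Cenpk at 10, Nuf2 at 9.9 and Spc25 at 10.4. Control replicate 4 was high for Ube2c at 11.1 and for Espl1 at 9.1. Mutant replicate 5 was high for Espl1 at 8.5 and for Kif20a at 9.1, nearer to the controls than the other mutants. Control replicate 3 was low for Ncaph at 10, where the gap was 1 rounding step.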

How the results depend on the processing

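Of 861 values of the 41 genes under 21 alternatives, 750 kept their direction and side of the threshold, 106 lost a call, 5 gained one (all Cdc20) and 0 changed direction. The number of the 41 called lower was 38. It ranged from 29 (without mutant replicate 3) to 38 when 1 array was left out, and their median log2 fold change from -0.52 to -0.44. None was called higher under any alternative by limma (0 at an unadjusted p under 0.05 in the fits with no covariate, with the muscle covariate and with the replicate block). The numbers were 34 with all probe sets averaged, 35 without suffixed probe sets, 33 after centring on array medians and 34 with the Y-linked gene Eif2s3y as a covariate. The shares of all genes called lower in these 4 fits were 4.97%, 5.12%, 2.61% and 3.72%, against 5.36% in the main fit. They were 2.51% without mutant replicate 3, 6.1% without control replicate 1 and 0.115% with the muscle median as a covariate. With the muscle median as a covariate 2 of the 41, 3 of the other mitotic genes, 0 of the replication genes (32 lower at an unadjusted p under 0.05) and 0 of the G1 genes (3 lower at an unadjusted p under 0.05) were called. The share of all genes at that unadjusted threshold was not counted for this fit. The cause of the lost calls was not tested.

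Deviations of same-numbered mutant and control arrays over all genes correlated at 0.03, 0.06, -0.05, -0.10 and 0.11, so no pairing by number was seen. An effect shared by part of the genes could be missed in this way. With a replicate block 27 of the 41, 20 replication genes and 1 G1 gene were called lower. Calls lost with the block were those of Cdk1, Bub3, Mad2l1, Ube2c, Cenpk, Nuf2, Spc25, Kif2c, Kif4, Nusap1 and Ncaph. Their adjusted p by limma was 0.0605 to 0.0979. In that fit 2.01% of all genes were called lower, against 5.36% without the block. Centring on array medians, which moved the median of all genes to 0.08, left 25 of the 41 with groups that do not overlap, against 38 without it (38 to 39 with 1 array left out), and 1 G1 gene called. Every mutant array lay below every control for 4.93% of all genes in the main fit. That share was not counted for the centred values or with arrays left out. Over all genes the centring gave 474 lower and 1283 higher calls, against 975 and 529. Leaving out 1 array gave 33 to 44 other mitotic, 24 to 33 replication and 1 to 4 G1 genes called lower. Cenpa (-0.08, adjusted p = 0.930), Top2a (-0.26, 0.464), Spc25 (-0.24, 0.150) and Hmmr (-0.44, 0.0897) were not called without suffixed probe sets, nor were Kif23 (-0.26, 0.204) and Cenpk (-0.32, 0.0595) with probe sets averaged.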
